A study of Mus musculus with 29 samples.

Results

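The 8 immunoglobulin heavy-chain constant genes of the mouse (Ighm, Ighd, Ighg3, Ighg1, Ighg2b, Ighg2c, Ighe and Igha) were taken by name from a table of 13982 genes, and all 8 were listed in it. They encode the constant part of the heavy chain and so fix the class (isotype) of an antibody. The transcriptomes came from mice of the strain (NZBxNZW)F1, written NZB/W, a lupus model that develops antibodies to double-stranded DNA and then nephritis with protein in the urine. All 14 libraries used here were Ion Torrent libraries of untreated mice of this strain, as far as the labels say. The question behind the design was how tertiary lymphoid structures (TLS), the lymphoid aggregates that form inside the inflamed kidney, compare with the kidney around them and with lymph nodes.

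Proteinuric mice gave 10 libraries, namely 4 of kidney tissue (mouse H6 at 39 weeks, mouse H20 at 36, mouse H115 at 25 and mouse H117 at 32), 3 of TLS (mice H6, H20 and H115) and 3 of lymph node (mice H6, H20 and H117). Kidney tissue and TLS of one mouse were parts of the same kidney, separated by hand under a loupe, so the TLS libraries could hold neighbouring kidney tissue. A further 3 lymph node libraries were from mice positive for anti-dsDNA antibodies for under 5 weeks (mouse D10 at 28 weeks, mouse D11 at 29 and mouse L25 at 18), and 1 was from a young mouse of 4 weeks. For the antibody-positive lymph nodes, RNA was purified with another kit (miRNeasy) than that of all other tissues (TRIzol), so kit and disease stage cannot be told apart. By the study's methods, the lymph nodes were those that drain the kidney. Each library is of its own tissue sample, and p-values measure the spread between these samples.

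As background, a naive B cell carries IgM and IgD, whose constant genes Ighm and Ighd lie first in the locus. On activation, class switch recombination joins the same variable region to a constant gene further down, giving IgG, IgE or IgA. Plasma cells then make very large amounts of secreted heavy-chain RNA, so heavy-chain reads follow the number of plasma cells and the RNA in each as well as the number of B cells. In bulk tissue, fewer cells of a type and less RNA per cell cannot be told apart. Mouse IgG2a/c and IgG2b are the subclasses bound best by activating Fc receptors and complement, and IgG3 is a subclass typical of responses to repetitive antigens.

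The 8 genes lay on the minus strand of chromosome 12 (GRCm38, GENCODE annotation) within 168 kb, from chr12:113254830 to 113422730. In the direction of transcription their order was Ighm (113418558 to 113422730), Ighd (113406604 to 113416324), Ighg3 (113356224 to 113361232), Ighg1 (113325240 to 113330523), Ighg2b (113302965 to 113307933), Ighg2c (113285325 to 113288932), Ighe (113269260 to 113273248) and Igha (113254830 to 113260236). Each was annotated as an immunoglobulin constant gene with 2 transcripts.

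Since the results turn on reads being told apart between the 4 IgG genes, the hinge exon of each is shown. The hinge, the flexible stretch between the arms and the stem of the antibody, is the exon in which the IgG genes differ most. The sequences are from the GRCm38 transcripts, 5′ to 3′ on the coding strand, with the hinge in capitals between 20 bases of the first constant (CH1) exon and 20 bases of the second (CH2) exon. The hinge exons lay at chr12:113360529-113360576 (Ighg3), chr12:113329844-113329882 (Ighg1), chr12:113307261-113307326 (Ighg2b) and chr12:113288263-113288325 (Ighg2c).
Ighg3: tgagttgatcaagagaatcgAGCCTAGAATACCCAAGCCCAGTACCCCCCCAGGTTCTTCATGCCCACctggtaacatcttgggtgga
Ighg1: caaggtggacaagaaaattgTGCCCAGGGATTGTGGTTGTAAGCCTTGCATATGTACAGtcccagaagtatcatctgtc
Ighg2b: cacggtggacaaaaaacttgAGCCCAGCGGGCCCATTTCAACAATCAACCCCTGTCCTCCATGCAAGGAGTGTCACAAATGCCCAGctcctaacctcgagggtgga
Ighg2c: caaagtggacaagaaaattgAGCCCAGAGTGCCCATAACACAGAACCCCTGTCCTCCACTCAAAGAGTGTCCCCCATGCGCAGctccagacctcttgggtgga

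Hinge length ran from 39 bases in Ighg1 to 66 in Ighg2b, and hinge identity from 41.7% (Ighg3 with Ighg1) to 77.3% (Ighg2b with Ighg2c). Over the 4 exons of the secreted heavy chain, Ighg2b and Ighg2c were 85.9% identical, and every other pair of IgG genes was 74.2% to 76.8% identical. Ighg2b and Ighg2c were closest in the CH2 exon (94.2%), where they shared the longest identical run of any pair, 78 bases, at chr12:113306869-113306946 in Ighg2b and chr12:113287869-113287946 in Ighg2c.
Ighg2b and Ighg2c, shared run in CH2: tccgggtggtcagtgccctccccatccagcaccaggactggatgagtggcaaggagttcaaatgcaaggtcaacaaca
Of the windows of 50 bases in Ighg2b, 5.88% occurred unchanged in Ighg2c, and none of those of 100 bases did. No window of 50 bases was shared within the other pairs of IgG genes. A short read from such a window cannot be assigned, so the split between Ighg2b and Ighg2c is less certain than their sum, which is given below as well. The reference is built on C57BL/6, which carries Ighg2c where many other strains carry the closely related Ighg2a. Reads of an IgG2a-type allele in NZB/W would be counted on Ighg2c or lost, and the values of Ighg2c are read here as IgG2a/c.

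The libraries held 343825 to 443379 reads on listed genes. Ribosomal RNA took 55.6% of the reads of the mouse H117 kidney, 31.8% of the mouse H6 lymph node and 21.3% of the mouse H115 TLS, against at most 5.33% elsewhere. Outside it, these libraries held 167440, 297226 and 348963 reads in that order, against 340874 to 405739 elsewhere. The mouse H117 kidney and the mouse H6 lymph node were thus shallower for all other genes, and the mouse H115 TLS was not. Values are normalised read counts, (reads + 1) divided by the library's size factor, so that a gene without a read is listed at about 1. A count of 0 allows up to 3 reads. Divided by the size factor, without the added read, 3 reads come to 2.36 to 5.32 according to the library. Intervals and such limits cover counting error only, since PCR copies are not independent molecules. Kidney markers (10 tubule and podocyte genes) summed to 6010 to 18646 in kidney tissue, 1793 (mouse H6), 4195 (mouse H20) and 7689 (mouse H115) in TLS, and 31.9 to 61.95 in lymph nodes, where Umod and Slc34a1 had 0 reads in the proteinuric libraries. B-cell markers (9 genes) summed to 366 to 531 in TLS, 646 to 1316 in lymph nodes of antibody-positive and proteinuric mice, and 9 to 28 reads in kidney tissue of mice H6, H20 and H117. The mouse H115 kidney had 0 reads on them, and Ms4a1, Pax5, Cr2, Blk and Fcrla had 0 reads in every kidney library.

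Heavy-chain constant transcripts made up several percent of all reads in lymphoid tissue and a small fraction of a percent in kidney tissue. In kidney tissue the 8 genes took 0.173% (mouse H6), 0.230% (mouse H20), 0.0415% (mouse H115) and 0.0772% (mouse H117) of the reads. The TLS libraries gave 8.22%, 3.90% and 1.57% for mice H6, H20 and H115. The proteinuric lymph nodes gave 4.95%, 6.67% and 6.17% for mice H6, H20 and H117, the antibody-positive ones 7.71%, 5.84% and 4.01%, and the young one 6.505%. TLS thus ran from above every lymph node to below every lymph node, and did not overlap with kidney tissue. Ribosomal RNA is part of these totals, and outside it the members took 0.174% of the reads of the mouse H117 kidney, 7.27% of the mouse H6 lymph node and 2.00% of the mouse H115 TLS. In the 3 TLS libraries the order of the summed heavy-chain values (27670.4, 11616 and 7603) was the reverse of the order of the kidney markers given above, and the part of admixed kidney tissue in that spread was not tested.

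**Figure D1:**
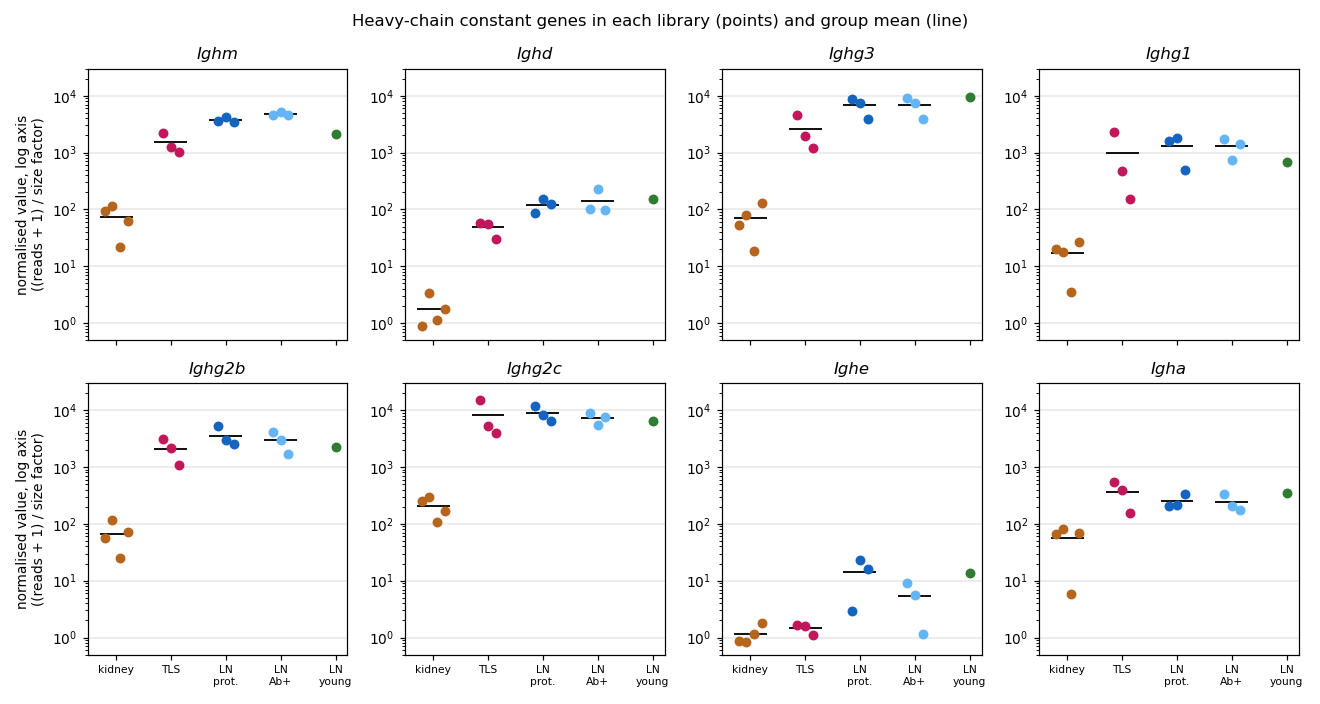
Normalised value (log axis) of each heavy-chain constant gene in each library (points, mice in the order H6, H20, H115, H117 for kidney, H6, H20, H115 for TLS, H6, H20, H117 for proteinuric lymph node, "LN prot.", and D10, D11, L25 for antibody-positive lymph node, "LN Ab+"), with group means as lines. Every gene but Ighe was higher in all TLS and lymph node libraries than in all 4 kidney libraries, and the gap was narrowest for Igha.

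Ighm, the constant gene of IgM, had values of 92.8, 114.7, 22.0 and 63.9 in kidney tissue of mice H6, H20, H115 and H117. In TLS of mice H6, H20 and H115 it had 2222, 1264 and 1042, and in proteinuric lymph nodes of mice H6, H20 and H117 it had 3636, 4274 and 3441. Antibody-positive lymph nodes gave 4563, 5187 and 4653. The 4 groups did not overlap, and the means rose from kidney (73.4 ± 40.1, SD, n = 4) through TLS (1510 ± 627, n = 3) and proteinuric lymph node (3784 ± 436, n = 3) to antibody-positive lymph node (4801 ± 338, n = 3).

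Ighd, the constant gene of IgD, which marks mainly mature naive B cells, was the lowest after Ighe. Its reads were 0, 3, 0 and 0 in the kidney libraries, 68, 70 and 27 in TLS, and 58, 162 and 151 in proteinuric lymph nodes. The corresponding values were 58.5, 55.8 and 30.5 in TLS and 85.5, 154 and 123 in proteinuric lymph nodes, again without overlap. In antibody-positive lymph nodes Ighd had values of 100.1, 227 and 97.5, which overlapped with those of the proteinuric mice.

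Of the IgG genes, Ighg2c had the largest value in every kidney and TLS library. It had 248, 298, 108 and 165 in kidney tissue, 14909, 5344 and 3966 in TLS, and 11723, 8219.9 and 6340.1 in proteinuric lymph nodes. TLS and lymph node overlapped fully for this gene, and the highest of all 14 values was that of the mouse H6 TLS. Ighg3 had 53.9, 80.97, 18.5 and 130 in kidney tissue, 4537, 1965 and 1187 in TLS, and 8921, 7340 and 3922 in proteinuric lymph nodes. Here only the mouse H6 TLS reached the range of the proteinuric lymph nodes.

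Ighg2b ranged from 25.5 to 114.7 in kidney tissue, from 1069.7 to 3100 in TLS and from 2491 to 5162 in proteinuric lymph nodes. Ighg1, the class typically induced by interleukin-4, was the lowest IgG gene in all 14 libraries and the most variable among TLS, with 2299.6, 483 and 152 for mice H6, H20 and H115. In proteinuric lymph nodes Ighg1 had 1575, 1780.02 and 502. The mean Ighg1 value of TLS (978 ± 1156, SD, n = 3) thus had an SD above the mean, set by the mouse H6 library.

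Igha, the constant gene of the mucosal class IgA, showed another pattern from the IgG genes. Its values were 65.4, 80.97, 5.79 and 69.2 in kidney tissue, 543, 389.8 and 155 in TLS, and 206, 215 and 337 in proteinuric lymph nodes. Igha was the one member with its highest group mean in TLS (362 ± 195, against 252 ± 73.0 in proteinuric and 241 ± 86.8 in antibody-positive lymph node), although the libraries of the 3 groups overlapped. Ighe, the constant gene of IgE, the class of allergic responses, had 0 reads in all 4 kidney libraries and 1, 1 and 0 in TLS. Lymph nodes had 1, 23 and 19 Ighe reads in proteinuric mice, 9, 5 and 0 in antibody-positive mice and 14 in the young mouse.

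To compare genes with each other, values were divided by gene length. Per kb of annotated exons and per kb of the shortest transcript alike, Ighg2c ranked first and Ighg3 second in TLS and in both groups of adult lymph nodes, Ighd seventh and Ighe eighth in every group. The order of Ighm and Ighg2b depended on which length was used in every group except antibody-positive lymph nodes. There Ighm was above Ighg2b on both, with 2546 against 1095 per kb of exons and 3216 against 2632 per kb of the shortest transcript. In kidney tissue Ighg2c was also first on both lengths.

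TLS were compared with the kidney tissue of the same stage of disease in one limma model of the 10 proteinuric libraries on log2(value + 1), with Benjamini-Hochberg adjustment over 7382 genes. Of the 8 members, 7 were up-regulated in TLS and none in kidney tissue, against 8.62% and 6.07% of all genes tested. The same 7 had no overlap between the 2 tissues, as had 25.4% of all genes. Log2 fold changes of the IgG genes were close to each other, 5.24 ± 0.66 (SE) for Ighg3, 5.22 ± 0.89 for Ighg1, 5.00 ± 0.55 for Ighg2b and 5.15 ± 0.55 for Ighg2c (adjusted p from 0.000122 to 0.00252). Ighm was 4.50 ± 0.54 higher on the log2 scale (22.6-fold, adjusted p = 0.000213), with all 3 TLS libraries above all 4 of kidney. For Ighd the model gave 4.16 ± 0.38 (adjusted p = 4.79e-05), and the summed reads (165 in TLS against 3 in kidney) gave a ratio of 61.1 with a counting interval of 20.5 to 299. With a mean value of 1.80 in kidney, Ighd passed the filter on low values only through the lymphoid libraries.

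Igha differed least among the members that were up-regulated in TLS, by 3.00 ± 0.79 on the log2 scale (7.998-fold, adjusted p = 0.0237). That call was lost without the TLS library of mouse H6 (adjusted p = 0.117) or of mouse H20 (0.0809), and when only the kidney and TLS libraries were fitted (0.0576). With mouse as a block in the model, Igha gave 3.32 (adjusted p = 0.000615). Ighe could not be compared, since both tissues were at or under the limit that a count of 0 allows. The median log2 fold change of the 8 members was 4.75, and that of all genes -0.01.

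Proteinuric lymph nodes were compared with the kidney tissue in the same model, so that the kidney libraries are shared with the comparison above. All 8 members were up-regulated in lymph node, where 20.8% of all genes were higher and 23.0% lower, and all 8 had no overlap, as had 48.8% of all genes. Ighg3 had the largest log2 fold change, 6.77 ± 0.66 (109-fold, adjusted p = 5.61e-06). The other IgG genes followed with 6.23 ± 0.89 for Ighg1, 5.82 ± 0.55 for Ighg2b and 5.47 ± 0.55 for Ighg2c, and Ighm had 5.89 ± 0.54 (adjusted p from 3.65e-06 to 0.000154). Igha again differed least among the members with reads in the kidney, by 2.62 ± 0.79 (adjusted p = 0.0176), and lost the call without the lymph node of mouse H117 (adjusted p = 0.0690). Ighd, with the same limit from the filter as above, had 371 reads against 3, a ratio of 155 with a counting interval of 52.7 to 756. Ighe had 43 reads against 0, which puts it at least 18.0-fold higher over the group, and it passed the filter on low values only through the lymph nodes. Its lack of overlap rests on 1 read in the lymph node of mouse H6 (value 2.90, against at most 1.77 in kidney). That is fewer than the 3 reads that a count of 0 allows. The median was 5.65 for the members and 0.05 for all genes.

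**Figure D2:**
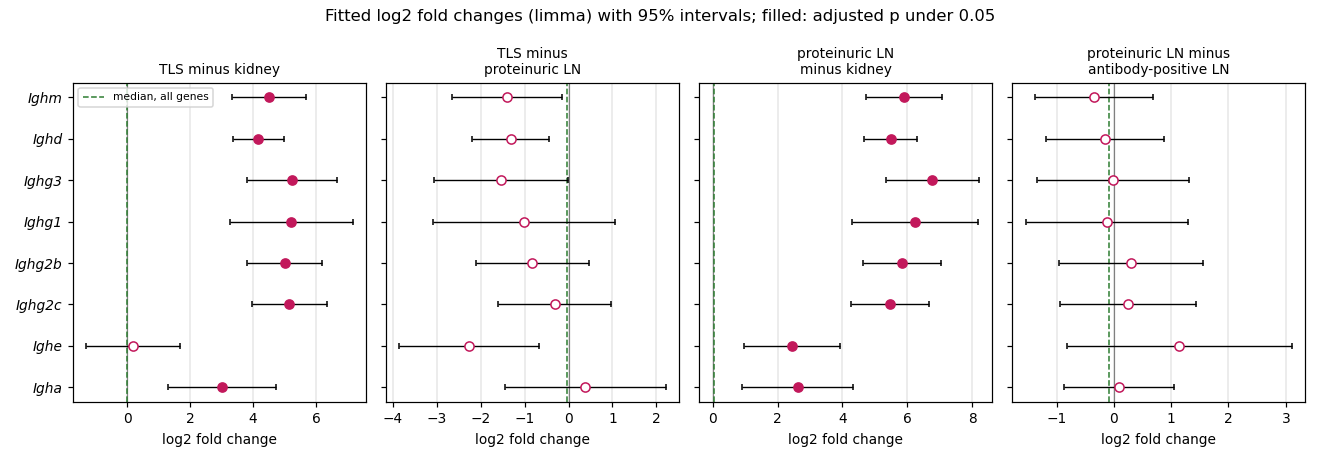
Log2 fold change (x axis) of each member in the 4 comparisons fitted with limma, with 95% intervals, filled where the adjusted p was under 0.05, and the median of all genes as a dashed line (LN, lymph node). Members lay far right of the dashed line in both comparisons with kidney, left of or around it in TLS against proteinuric lymph node, and around it between the lymph node groups; the Ighe value in TLS against kidney rests on 2 reads.

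TLS were then compared directly with lymph nodes of proteinuric mice. None of the 8 members passed the threshold in either direction with limma, whereas 8.87% of all genes were higher in TLS and 1.69% higher in lymph node. Unadjusted p-values were under 0.05 for 4 members, as for 22.6% of all genes (1671 of 7382). Ighm gave a log2 fold change (TLS minus lymph node) of -1.40 ± 0.58 (adjusted p = 0.166), and Ighd gave -1.32 ± 0.40 (adjusted p = 0.0563). These genes and Ighe were the 3 members whose libraries did not overlap, where 26.8% of all genes did not. For Ighe this rests on 1 read in the lymph node of mouse H6 (value 2.90, against at most 1.70 in TLS). Ighg3 gave -1.53 ± 0.70 (adjusted p = 0.218) and Ighg2c -0.32 with a 95% interval of -1.60 to 0.96. Igha was the only member with a positive estimate, 0.38 with an interval of -1.46 to 2.21. A p that misses the threshold does not show equal levels.

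Counts of calls in this comparison depended on the test. On recovered reads, edgeR called 1 member (Ighe) and the DESeq2 Wald test 2 (Ighd and Ighe), both lower in TLS. For Ighe the summed reads (43 in lymph node against 2 in TLS) gave a ratio of 24.3 with a counting interval of 6.33 to 207, but all except 1 of the 43 reads came from the lymph nodes of mice H20 and H117. The median was -1.17 for the members and -0.04 for all genes. B-cell markers had a median of -0.90 in the same contrast, with 0 of 8 tested passing the threshold, so the lower members moved alongside the B-cell markers, whose part in the result was not tested.

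Lymph nodes of proteinuric and of antibody-positive mice were compared in a model of their own (3 against 3 libraries, 6810 genes). No member passed the threshold, with every adjusted p at 0.998 (limma) and 0.0% of all genes passing the threshold. At an unadjusted p under 0.05 there were 0 members and 215 genes, and edgeR called 0 genes and DESeq2 13, none of them a member. Log2 fold changes ran from -0.35 for Ighm (95% interval -1.37 to 0.68) through -0.02 for Ighg3 (-1.35 to 1.30) and 0.24 for Ighg2c (-0.94 to 1.43) to 1.14 for Ighe (-0.82 to 3.10). Ighm was the 1 member without overlap between the groups, against 8.58% of all genes, with 3441 to 4274 in proteinuric and 4563 to 5187 in antibody-positive mice. The median was 0.03 for the members and -0.08 for all genes.

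Isotype composition was read within each library, as the share of each gene in the reads of the 8 members, which does not depend on size factors. IgG genes together held 70.5% to 89.8% of these reads in every library. Ighg2c held 53.9%, 46.0% and 52.2% in TLS of mice H6, H20 and H115. In proteinuric lymph nodes of mice H6, H20 and H117 it held 37.5%, 32.9% and 36.9%, and in antibody-positive ones 31.0%, 24.3% and 38.9%. Each TLS library thus had a higher Ighg2c share than each lymph node library of the adult mice, and counting intervals were narrow (for the lowest TLS share, 45.2% to 46.8%).

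Ighg3 showed the opposite order. Its share was 16.4%, 16.9% and 15.6% in TLS, 28.5%, 29.3% and 22.8% in proteinuric lymph nodes and 31.8%, 33.5% and 20.0% in antibody-positive ones, again without overlap of TLS with either group. Expressed as a ratio, TLS had 3.29, 2.72 and 3.34 Ighg2c reads for each Ighg3 read. Proteinuric lymph nodes had 1.31, 1.12 and 1.62 and antibody-positive ones 0.974, 0.724 and 1.95. In mice H6 and H20, which gave both tissues, the ratio was higher in the TLS than in the lymph node of the same mouse in 2 of 2 mice. No test was run on shares, and an exact permutation test of 3 against 3 libraries could not go below p = 0.1.

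**Figure D3:**
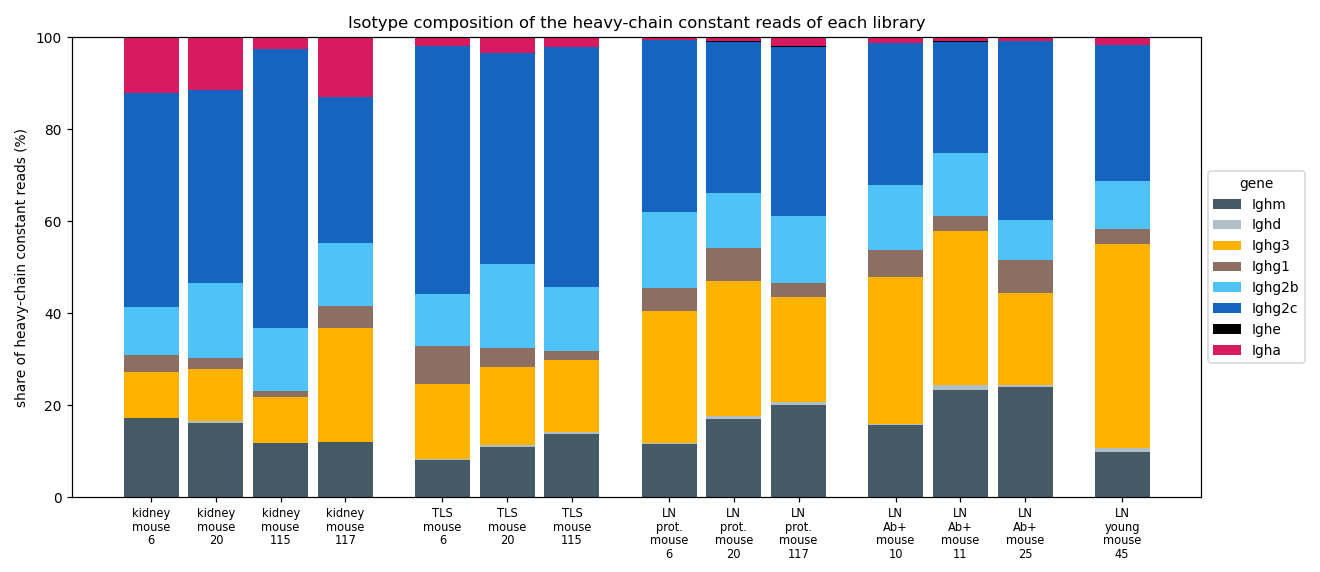
Share (%) of each gene in the heavy-chain constant reads of each library, stacked to 100%, with mice named by the number in their label ("LN prot.", lymph node of proteinuric mice; "LN Ab+", of antibody-positive mice). The Ighg2c band is wider in each TLS library than in each lymph node library, and the Ighg3 band is narrower in each, being widest in the young mouse (44.5%).

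Sums of the genes that are hardest to tell apart gave the same order. Ighg2b and Ighg2c together held 65.1%, 64.2% and 66.3% in TLS, 53.9%, 44.9% and 51.4% in proteinuric and 45.1%, 37.9% and 47.4% in antibody-positive lymph nodes. The share of Ighg2b alone overlapped between the tissues (11.2% to 18.2% in TLS and 12.03% to 16.5% in proteinuric lymph nodes). Ighm held 8.03%, 10.9% and 13.7% in TLS against 11.6%, 17.1% and 20.0% in proteinuric lymph nodes, which overlapped.

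Kidney tissue had few member reads (152 to 835 in a library) and its shares are correspondingly less certain. Ighg2c held 46.6%, 42.2%, 60.5% and 31.6% in mice H6, H20, H115 and H117, with a counting interval of 52.6% to 67.9% for mouse H115. Ighg3 held 9.87% to 11.4% in 3 kidneys and 24.7% in that of mouse H117, the mouse whose lymph node was in the series but whose TLS was not. The share of Igha was 12.1%, 11.4% and 13.1% in kidneys of mice H6, H20 and H117, with 1.96% to 3.35% in TLS and 0.65% to 1.96% in proteinuric lymph nodes. The exception was the kidney of mouse H115, where Igha had 4 reads (2.63%, counting interval 1.03% to 6.57%), as compared with 2.02% in the TLS of that mouse.

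**Figure D4:**
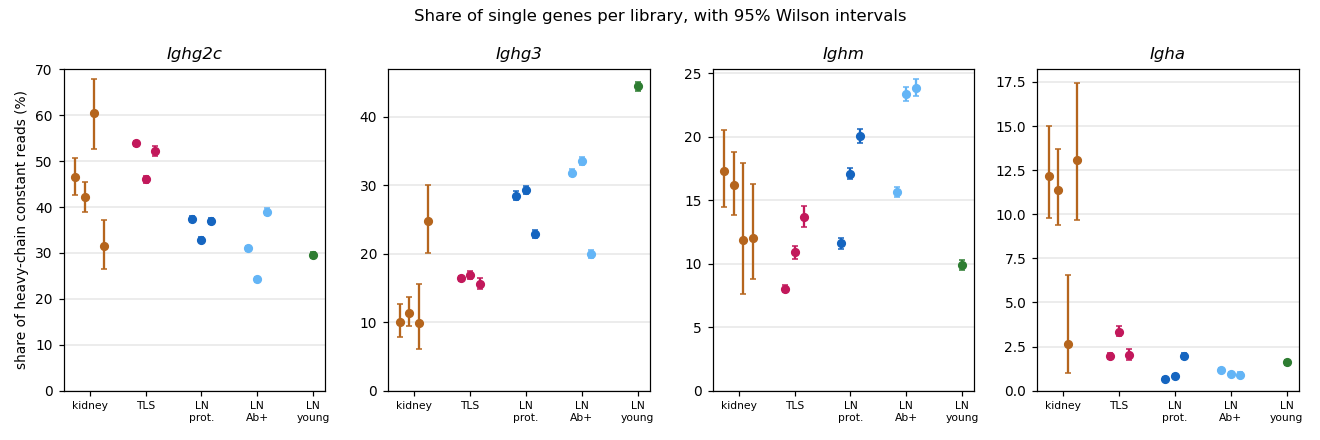
Share (%) of Ighg2c, Ighg3, Ighm and Igha in the heavy-chain constant reads of each library (points, mice in the same order as in the plot of values), with 95% Wilson intervals for counting error ("LN prot.", lymph node of proteinuric mice; "LN Ab+", of antibody-positive mice). Ighg2c lies above and Ighg3 below both adult lymph node groups in all 3 TLS libraries, and Igha lies between 11.4% and 13.1% in 3 of the 4 kidney libraries and at or below 3.35% elsewhere.

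Relative to Ighm, Igha had 0.702, 0.704, 0.222 and 1.09 reads for each Ighm read in kidney tissue, 0.244, 0.308 and 0.148 in TLS and 0.0562, 0.0501 and 0.0976 in proteinuric lymph nodes. These ratios fell from kidney through TLS to lymph node in mice H6 and H20, which gave all 3 tissues. Igha in the kidney rests on 73, 95, 4 and 38 reads, and the reads cannot tell cells in the kidney tissue from cells of blood or of the neighbouring TLS.

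The young lymph node (1 library, so without a replicate check) had 23998 member reads. Its largest share was that of Ighg3, 44.5% (counting interval 43.8% to 45.1%), and Ighg2c followed with 29.5%. Ighm held 9.88%, less than in any adult lymph node, where it held 11.6% to 23.9%. Its values lay within the adult lymph nodes for Ighd (153), Ighg2c (6341) and Ighg1 (676) and below them for Ighm (2123). They were just above the highest adult lymph node for Ighg3 (9550.2 against 9279) and Igha (344 against 339). The library is of a mouse of 4 weeks by its label, and switched IgG genes made up 87.7% of its member reads.

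The partners of the heavy chain were examined next. Igj, the joining chain that links IgM pentamers and IgA dimers, had 60, 59, 8 and 15 reads in kidney tissue, 1047, 1234 and 512 in TLS and 1108, 882 and 990 in proteinuric lymph nodes. It was up-regulated in TLS against kidney by 4.65 ± 0.54 (adjusted p = 0.000176) and in lymph node against kidney by 5.04 ± 0.54. The lambda constant gene Iglc2 moved by 4.64 ± 0.54 and 5.67 ± 0.54. The kappa constant gene Igkc, in contrast, had 108 to 246 reads in kidney tissue, 275 to 401 in TLS and 244 to 298 in proteinuric lymph nodes, with a log2 fold change of 0.46 ± 0.45 in TLS against kidney (adjusted p = 0.560). Kappa variable segments summed to 128 to 1252 reads in kidney tissue and 10745 to 37707 in TLS. In TLS and lymph nodes the table thus listed Igkc at a small fraction of the reads of its own variable segments, so Igkc is not read here as a measure of kappa light chain.

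**Figure D5:**
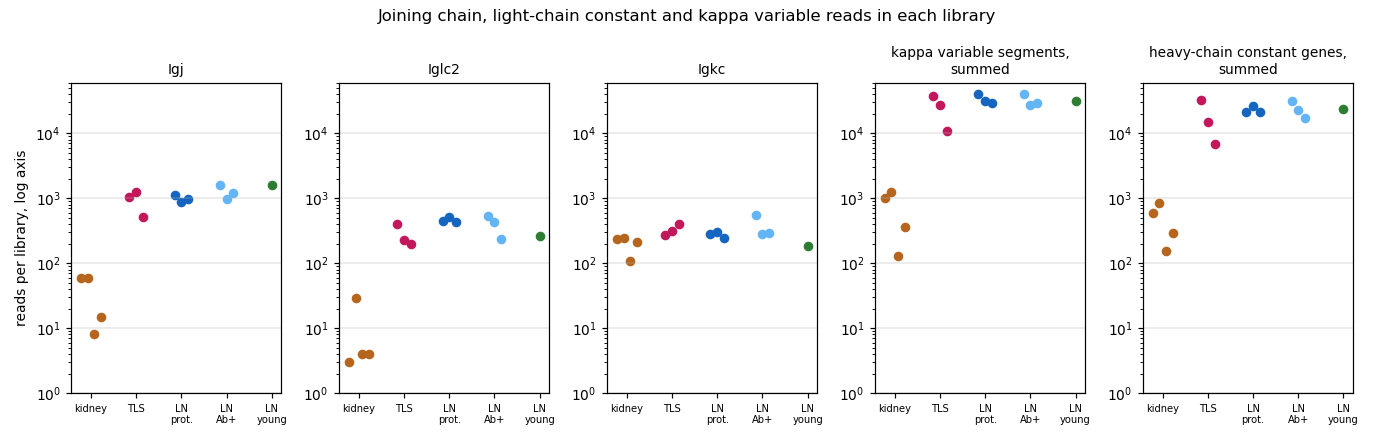
Reads (log axis) in each library (points) of the joining chain gene Igj, the light-chain constant genes Iglc2 and Igkc, the kappa variable segments summed and the 8 heavy-chain constant genes summed ("LN prot.", lymph node of proteinuric mice; "LN Ab+", of antibody-positive mice). Igj, Iglc2 and the kappa variable segments rise with the heavy-chain genes from kidney to TLS and lymph node, while Igkc stays between 108 and 552 reads in all 14 libraries.

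For each B-cell marker read, the members together had 52.9, 30.5 and 21.3 reads in TLS of mice H6, H20 and H115 and 46.9, 25.7 and 21.8 in proteinuric lymph nodes of mice H6, H20 and H117. Antibody-positive lymph nodes had 37.8, 17.0 and 30.7. The tissues overlapped fully on this scale. In mice H6 and H20, for which both were sequenced, TLS exceeded lymph node slightly in each.

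Genes that act on the heavy-chain locus were counted over lists. Of 10 genes of the class-switch machinery with values high enough to be tested, 1 (Rpa1, which coats single-stranded DNA, by 0.93 ± 0.27, adjusted p = 0.0380) was up-regulated in TLS against kidney, where 8.62% of all genes were. Between TLS and lymph node 0 passed the threshold. In lymph node against kidney 4 were higher and 1 lower, against 20.8% and 23.0% of all genes. With mouse as a block the call of Rpa1 was lost (adjusted p = 0.0970). The 4 higher genes included H2afx (2.11 ± 0.33), a histone marked at DNA breaks, and Parp1 (1.42 ± 0.34), a break sensor, and the lower gene was Xrcc5, an end-joining factor named here after its values were seen, whose call was lost with the block (adjusted p = 0.0546).

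Signals that direct switching and their receptors had a list median of 1.32 in TLS against kidney, and all genes one of -0.01. None of the 15 genes tested was lower and 7 were higher, where 8.62% of all genes were. Examples were the BAFF receptor Tnfrsf13c (63 reads against 0), the interleukin-21 receptor Il21r (2.84 ± 0.33) and the transcription factor Batf (2.92 ± 0.43). Their mean values in kidney were 1.17, 1.60 and 1.80, so these genes passed the filter on low values only through the lymphoid libraries. Against lymph node, 3 of the 15 were lower in TLS, where 1.69% of all genes were. The 3 were Il21r (-1.61 ± 0.36, adjusted p = 0.0115), Tnfrsf13c (-1.21 ± 0.32) and the APRIL and BAFF receptor Tnfrsf13b (-1.06 ± 0.28). With mouse as a block 0 of the 15 passed (adjusted p = 0.0591, 0.0836 and 0.143 in that order). In lymph node against kidney, 11 of 15 were higher, where 20.8% of all genes were. The cytokine genes Il4, Il13, Il21, Ifng and Il5 were not listed by these names among the 13982 genes, and so were not analysed here.

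Receptors of the antibody classes were higher in TLS than in kidney for 5 of 10 genes tested (4 with mouse as a block). Among them were Fcgr4, which binds IgG2a/c and IgG2b (1.99 ± 0.41, adjusted p = 0.00663), the receptor subunit Fcer1g (1.63 ± 0.48) and the IgE receptor Fcer2a (39 reads against 0). Faim3 (77 reads against 0) was also higher, and Faim3 and Fcer2a passed the filter on low values only through the lymphoid libraries. Fcgr4 was lower in TLS than in proteinuric lymph node (-1.66 ± 0.44, adjusted p = 0.0302), a call lost with mouse as a block (adjusted p = 0.0560). Pigr, which carries polymeric IgA and IgM across epithelia, had 60 reads in the kidney libraries and 66 in TLS, with a log2 fold change of 0.13 ± 0.45 (adjusted p = 0.889), and 0 reads in proteinuric lymph nodes. Kidney markers in TLS are given above, and their part in the Pigr reads was not tested. In lymph node against kidney 7 of 10 were higher and 2 lower, against 20.8% and 23.0% of all genes. The 2 lower genes were Pigr and the neonatal Fc receptor Fcgrt. Fcgrt was named after its values were seen and was not called with the block (adjusted p = 0.0686).

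Factors of heavy-chain secretion were higher in TLS than in kidney for 6 of 8 genes tested (5 with mouse as a block) and in lymph node for 8 of 8. Of all genes, 8.62% and 20.8% were higher, in that order. Mzb1, an endoplasmic reticulum partner of the heavy chain, rose by 4.94 ± 0.56 in TLS and 6.15 ± 0.56 in lymph node, and the coactivator Pou2af1 by 4.37 ± 0.30 and 5.47 ± 0.30. Pou2af1, Irf4 and Pou2f2 had mean values of 1.38, 1.38 and 1.17 in kidney, and passed the filter on low values only through lymphoid libraries. Between TLS and lymph node, Pou2af1 was the only gene of this list that passed the threshold (-1.10 ± 0.32, adjusted p = 0.0477), and its call was lost with mouse as a block (adjusted p = 0.231). B-cell markers were higher for 8 of 8 genes tested in TLS against kidney, of which 4 had 0 reads in every kidney library and so passed the filter only through lymphoid libraries, plasma cell markers for 6 of 7, and T-cell markers for 6 of 6, and 3 of 9 kidney markers were lower. Of all genes, 8.62% were higher and 6.07% lower in TLS against kidney. In lymph node against kidney, the counts of these lists were 8 of 8, 7 of 7 and 6 of 6 higher and 9 of 9 lower. There, 20.8% of all genes were higher and 23.0% lower. Against lymph node, TLS had 0 of 7 plasma cell markers and 4 of 6 T-cell markers lower, and 8 of 9 kidney markers higher. In that comparison 1.69% of all genes were lower in TLS and 8.87% higher. With mouse as a block, 1 of 6 T-cell markers was lower there and 8 of 9 kidney markers were higher. Between proteinuric and antibody-positive lymph nodes, 0 genes of any list passed the threshold with limma.

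The genes most like each member over the 14 libraries (Pearson r of log2 values, 2257 genes) were chosen outside immunoglobulin and T-cell receptor segments. For Ighm the most alike was Cd79b, a subunit of the B-cell receptor (r = 0.987). Ighg2b and Ighg2c were most like Mzb1 (r = 0.984 and 0.980), and Ighg3 and Ighg1 most like the chemokine gene Ccl19 (r = 0.986 and 0.982). Igha was most like Igj, with a lower r of 0.879. These values are descriptions only, since the points are dominated by the step from kidney to lymphoid tissue, libraries of one mouse are not independent, and all share the same size factors.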

How the data were processed

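Poly(A) RNA of kidney tissue, TLS and lymph nodes was fragmented with RNase III to an average of 100 to 200 nt and sequenced on an Ion Torrent PGM. The authors mapped and counted reads per gene with the CLC Genomics Workbench against GRCm38 and deposited 1 table of normalised values (signal), 13982 genes by 14 libraries. Each deposited value was read as (reads + 1) divided by a DESeq size factor. Of all values, 100.0% were whole multiples of the smallest value of their library (tolerance 1e-06). That smallest value was taken as 0 reads, and the whole multiples do not by themselves show the added read. Read length and strand setting are not given in the sources used here, so antisense reads could not be set apart. Of the table, 0 columns belonged to other samples. Illumina whole-kidney samples of the series were not analysed here.

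Fold changes were fitted with limma 3.58.1 (trend and robust moderation, R 4.3.3) on log2(value + 1), which understates the change of low genes, keeping genes whose mean value reached 5. Kidney, TLS and proteinuric lymph node shared 1 fit, and the lymph node stages had their own. Calls used a Benjamini-Hochberg adjusted p under 0.05 over all genes tested. The method was tested on simulated data. Alternatives were edgeR 4.0.16 (TMM or DESeq2 size factors) and DESeq2 1.42.0 on recovered reads, other filters, pseudocounts and scalings, each library left out, and mouse as a block. Numbers in the titles name the mouse, so equal numbers pair tissues of one animal. Deviations from the tissue means correlated at 0.351 to 0.454 between kidney and TLS of one mouse and at -0.335 to 0.202 where a lymph node was one of the pair. Kidney and TLS of different mice gave -0.498 to 0.361, and the kidney of mouse H117 with the lymph node of mouse H6 gave 0.512. These correlations thus did not set the pairs of one mouse apart. Shares carry 95% Wilson intervals. Libraries held 343825 to 443379 reads, and 3 reads divided by the size factor, without the added read, come to 2.36 to 5.32.

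All 8 members were named, and from each gene list up to 4 genes with the largest change among those past the threshold, with Igj, Igkc, Cd79b and Pou2af1 always given. Some genes that this rule names are not reported here. For likeness, the 5 genes with the highest Pearson r were sought among genes whose mean value reached 20. The members and lists were chosen with earlier results of these data known. Sequences and positions are from the GENCODE transcripts and annotation of GRCm38.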

Additional observations from a re-analysis of the deposited data

Results flagged for a closer look

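In 4 kidney libraries, 16 quantities (the value and the share of each member) were examined for 1 library far from the other 3, and 3 stood apart. This count is not set against chance, since the shares of one library depend on each other and some quantities rest on 0 reads. The share of Ighd was 0.359% in the kidney of mouse H20, which had 3 Ighd reads while the other kidneys had 0, so that any read there would have been flagged. The share of Ighg3 was 24.7% in the kidney of mouse H117, against 9.87% to 11.4% in the others, in the library with 55.6% ribosomal RNA reads. The share of Igha was 2.63% in the kidney of mouse H115, from 4 reads.

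The lymph node of the young mouse entered no comparison and had reads on every member. There were 2372 for Ighm, 170 for Ighd, 10672 for Ighg3, 755 for Ighg1, 2545 for Ighg2b, 7086 for Ighg2c, 14 for Ighe and 384 for Igha, all above the 3 reads that a count of 0 allows. With 1 library of that age, none of these differences was tested.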

How the results depend on the processing

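All 7 members called in TLS against kidney and all 8 in lymph node against kidney kept their direction in every alternative in which they were fitted, with 6 to 7 and 6 to 8 called when 1 library was left out. Ighe could not be fitted with a mean value of at least 20 or without the lymph node of mouse H20 or H117, where it missed the filter. Calls in TLS against lymph node moved from 0 to 1 (both edgeR fits, no filter, pseudocount 5), 2 (DESeq2) and 0 to 1 with 1 library left out (1 without the kidney of mouse H20 or the lymph node of mouse H6). Mouse as replicate block left 7, 0 and 8 members called in the 3 comparisons. It changed no call of a member, and list genes called in TLS against lymph node were 10 in place of 19. There, list genes called numbered 10 (edgeR, TMM), 12 (edgeR, DESeq2 size factors), 9 (mean value of at least 20) and 9 to 23 with 1 library left out (23 without the TLS of mouse H6, 9 without the lymph node of mouse H117). A mean value of at least 20 tested fewer genes and called 25 in place of 39 list genes in TLS against kidney and 33 in place of 59 in lymph node against kidney. Between the lymph node stages, list genes called were 0 with limma and 1 under DESeq2 or no filter, and 0 to 1 with 1 library left out (1 without mouse D11). Estimates that changed sign were never called, and the cause was not tested. In TLS against lymph node these were Ighg2c (0.024 with edgeR and TMM, -0.88 to 0.073 with 1 library left out) and Igha (-0.0017 to 0.90). Between the stages they were Ighg3 (0.12 in both edgeR fits and with DESeq2), Ighg1 (0.078 with TMM, 0.084 with DESeq2 size factors, 0.083 with DESeq2) and, with 1 library left out, Ighd (-0.36 to 0.25), Ighg3 (-0.39 to 0.33), Ighg1 (-0.49 to 0.46), Ighg2b (-0.061 to 0.60) and Igha (-0.14 to 0.37).

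Going from limma to edgeR with TMM moved the median of all genes in TLS against lymph node from -0.04 to 0.14, and the genes higher in TLS among those called from 84.0% to 95.3%, and against kidney the median from -0.01 to 0.11 and that percentage from 58.7% to 80.3%. With DESeq2 size factors edgeR gave 91.2% and 73.6%. Both edgeR fits differ from limma in the test, in the use of recovered reads and in the scaling, and the part of each was not tested. Shares depend on gene length, by construction. Per kb of exons, Ighg2c held 59.0% in kidney, 64.9% in TLS, 49.6% in proteinuric and 44.0% in antibody-positive lymph nodes, Ighg3 11.04% in TLS and 19.7% in proteinuric lymph nodes, and Igha 1.57% in TLS and 0.70% in antibody-positive lymph nodes. Per kb of the shortest transcript, an alternative chosen after seeing the data, Ighg3 held 17.1% in TLS and Ighm 11.02% in kidney and 16.3% in antibody-positive lymph nodes. Depth limits Ighe and, in kidney, Ighd, each at 0 reads in several libraries.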

Other observations

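Among the receptors of the antibody classes, Fcgr4, an activating receptor for IgG2a/c and IgG2b, was higher in all 3 proteinuric lymph nodes than in all 3 antibody-positive ones, while none of the IgG genes separated the groups. Its values were 126, 152 and 163 in proteinuric and 5.56, 20.0 and 14.9 in antibody-positive lymph nodes, without overlap. The log2 fold change was 3.50 ± 0.44 (SE, adjusted p = 0.09998 with limma, 0.202 with edgeR and 2.79e-07 with the DESeq2 Wald test), so the call depended on the test. The adaptor Fcer1g gave 1.27 ± 0.36 (adjusted p = 0.998 with limma). These genes were singled out after their values were seen, and the RNA kit differed between the groups.

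Variable segments of the heavy chain followed the constant genes. Their summed reads were 90 to 690 in kidney tissue, 25307, 14940 and 5819 in TLS of mice H6, H20 and H115, and 18642 to 20882 in proteinuric lymph nodes.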
